A study of Mus musculus with 16 samples.

Results

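CpG-poor distal intergenic differences are stretches of mouse DNA in the annotation class for sequence between genes, holding few CpG dinucleotides, whose methylation differed between kidneys of wild type and Gulo-/- mice in a list of differentially methylated regions that the authors deposited. The members were the regions annotated there as distal intergenic, with fewer than 10 CpGs, on chromosomes other than X and Y. This rule took 28546 of all 86510 regions, or 33.0%, and 78.5% of the 36370 distal intergenic ones. Of the distal regions left out, 5321 autosomal ones had 10 or more CpGs and 2503 lay on X or Y.

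Whole-genome bisulfite sequencing, which reads methylated and unmethylated cytosines apart, was made from 2 wild type and 2 Gulo-/- kidney samples of the strain labelled C57BL/6. The Gulo product completes the making of ascorbate (vitamin C) in mice, and ascorbate is a cofactor of the TET enzymes that oxidise methylcytosine. The kidneys of a sample were cut up, mixed and split between assays. The labels give no age, sex, diet, allele design or number of animals per sample. For each region the table holds 1 mean methylation level per side of the comparison, from 0 (no reads methylated) to 1 (all reads methylated). It does not name the genotype of side 1 or side 2 and gives no values per library and no coverage. Directions are therefore given by side, no value below has a replicate error, and no test between the sides or between groups of regions was possible. Regions share libraries and neighbours, so counts of them are descriptions. A bulk level averages over all kidney cells, so a change in the make-up of cell types and a change within cells cannot be told apart.

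In mammalian genomes most CpGs outside CpG islands are methylated. Enhancers, the distal elements that raise transcription of genes at a distance, often lie between genes, are mostly poor in CpGs and tend to lose methylation in the cell types that use them. Gene-poor DNA, by contrast, carries broad domains whose methylation can be partly lost in dividing cells. DNMT enzymes write the mark, and TET enzymes start its removal.

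Sequences are shown for members that lie wholly within a start window of RefSeq (250 bases before to 50 after a gene's start, build GRCm38.p6). Sequence was at hand for these windows only, so the printed regions do not stand for all members. Of the 28546 members, 157 overlapped such a window and 30 lay wholly inside one. In all 30 the number of CpGs in the RefSeq sequence equalled the number in the authors' deposited table, and a CpG lay at each end of the region. The printed stretches hold both bases of these end CpGs, so each runs 1 base past the table's region on either side. The 4 whole regions with the largest differences in each direction are printed from the first to the last CpG on the plus strand, with each CpG in capitals. They were chosen after their values were seen. First come those with a higher level on side 1.
Gm13387: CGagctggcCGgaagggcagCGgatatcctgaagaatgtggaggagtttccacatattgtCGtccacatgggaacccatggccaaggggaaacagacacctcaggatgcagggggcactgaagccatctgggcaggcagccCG
Gm47679: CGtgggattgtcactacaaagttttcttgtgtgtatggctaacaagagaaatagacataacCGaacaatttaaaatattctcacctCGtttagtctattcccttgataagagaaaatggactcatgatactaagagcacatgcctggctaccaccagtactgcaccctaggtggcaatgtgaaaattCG
Gm26747: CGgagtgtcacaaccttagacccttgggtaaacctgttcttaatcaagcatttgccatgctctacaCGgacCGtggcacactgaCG
Gm30467: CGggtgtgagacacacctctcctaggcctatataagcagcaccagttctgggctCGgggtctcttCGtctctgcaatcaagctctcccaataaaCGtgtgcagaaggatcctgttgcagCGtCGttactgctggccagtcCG

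The region at Gm13387, a long noncoding RNA gene (chr2:25145559-25145701), had 5 CpGs in 143 bases and levels of 0.785 on side 1 and 0.507 on side 2 in the authors' deposited table. Its nearest annotated start in that table was that of Nrarp, a Notch pathway regulator, 35.1 kb away. The Gm47679 region (chr10:5732852-5733040) had 4 CpGs in 189 bases, with levels of 0.750 and 0.514. The Gm26747 region (chr8:121418502-121418587) had levels of 0.705 and 0.494, and the Gm30467 region (chr14:77780979-77781120) 0.899 and 0.693. In each of these, side 1 was the more methylated side by 0.205 to 0.278. The next 4 had a higher level on side 2.
Wdr66: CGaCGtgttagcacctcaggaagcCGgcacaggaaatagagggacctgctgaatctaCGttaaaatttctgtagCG
Gm52720: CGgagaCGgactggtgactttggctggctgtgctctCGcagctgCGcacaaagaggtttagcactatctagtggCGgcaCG
Gm35551: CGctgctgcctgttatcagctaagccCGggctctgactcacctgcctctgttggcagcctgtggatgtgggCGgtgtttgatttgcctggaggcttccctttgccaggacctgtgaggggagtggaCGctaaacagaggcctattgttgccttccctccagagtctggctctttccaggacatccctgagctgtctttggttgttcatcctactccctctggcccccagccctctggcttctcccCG
Gm32798: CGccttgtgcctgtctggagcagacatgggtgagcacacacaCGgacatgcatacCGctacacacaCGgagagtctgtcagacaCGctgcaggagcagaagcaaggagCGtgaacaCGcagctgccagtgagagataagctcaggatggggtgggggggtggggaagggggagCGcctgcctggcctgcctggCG

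The region at the start of Wdr66 (chr5:123253714-123253789) had 5 CpGs in 76 bases, with a level of 0.273 on side 1 and 0.532 on side 2 in the authors' deposited table. The Gm52720 region (chr4:3200431-3200511) had 6 CpGs in 81 bases, with levels of 0.673 and 0.904. The Gm35551 region (chr17:84026310-84026556) had 5 CpGs spread over 247 bases, with levels of 0.521 and 0.750, and the Gm32798 region (chr2:118887876-118888070) 9 CpGs in 195 bases, with 0.139 and 0.355. Among the 157 members that overlap a RefSeq start, 109 (69.4%) were higher on side 2 and 48 (30.6%) on side 1. Most members went the other way, with 39.5% of all members higher on side 2. That share was 53.8% over all regions and 70.9% in autosomal promoter regions with fewer than 10 CpGs. Of the 157 members, 144 lay at the start of a long noncoding RNA gene and 13 at that of a protein-coding gene.

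The members together covered 8164 kb and 153498 CpGs. Their median length was 231 bases (middle 50% from 153 to 339), their median number of CpGs was 5, and 62.8% of them had 4 or 5, 4 being the smallest number in the whole table. The median density was 2.29 CpGs per 100 bases, against 3.62 in CpG-rich distal regions and 2.67 in all regions. The median distance to the nearest annotated transcription start was 58.5 kb (middle 50% from 20.1 to 173.6 kb), against 39.5 kb in CpG-rich distal regions. Of the members, 60.1% lay upstream of their nearest start and 7.85% were more than 500 kb away. On the RefSeq annotation of the same build, 83.1% overlapped no gene, 10.7% overlapped a long noncoding RNA gene and 4.52% a protein-coding gene.

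The methylation level of a member was higher on side 1 in 17262 regions (60.5%) and higher on side 2 in 11284 (39.5%). Over all 86510 regions of the authors' deposited table, 46.2% were higher on side 1 and 53.8% on side 2. CpG-rich distal regions had the mirror image of the members' split, with 39.6% higher on side 1. Among CpG-poor autosomal regions of other kinds the share was 47.3% in later introns, 33.9% in first introns and 29.1% in promoters. The members thus had the highest share of the autosomal classes named here. Distal intergenic regions on X and Y, of any CpG number, had a higher one, 79.3% of 2503. The members' share was above that of CpG-rich distal regions on 19 of 19 autosomes, by 14.7 to 24.99 percentage points.

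Sizes of the differences were close in both directions (medians of 0.191 and 0.201 for regions higher on side 1 and side 2), and the levels were further apart. Over all members the median absolute difference was 0.195 (middle 50% from 0.164 to 0.229), and 45.9% of members differed by at least 0.2, against 44.0% of all regions. Regions higher on side 1 had median levels of 0.881 on side 1 and 0.682 on side 2. Regions higher on side 2 had median levels of 0.573 on side 1 and 0.792 on side 2. The first kind was thus almost fully methylated on side 1, with 92.9% of regions above 0.7 there, and 43.3% above 0.7 on side 2. The second kind was mostly at intermediate level on side 1, where 67.1% lay between 0.3 and 0.7 and 10.4% below 0.3. Opposite sides of a level of 0.5 were found in 27.5% of regions higher on side 2 and in 8.58% of those higher on side 1. Levels were more spread out on side 1, where the middle 50% of members ran from 0.612 to 0.895, against 0.616 to 0.795 on side 2.

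**Figure D1:**
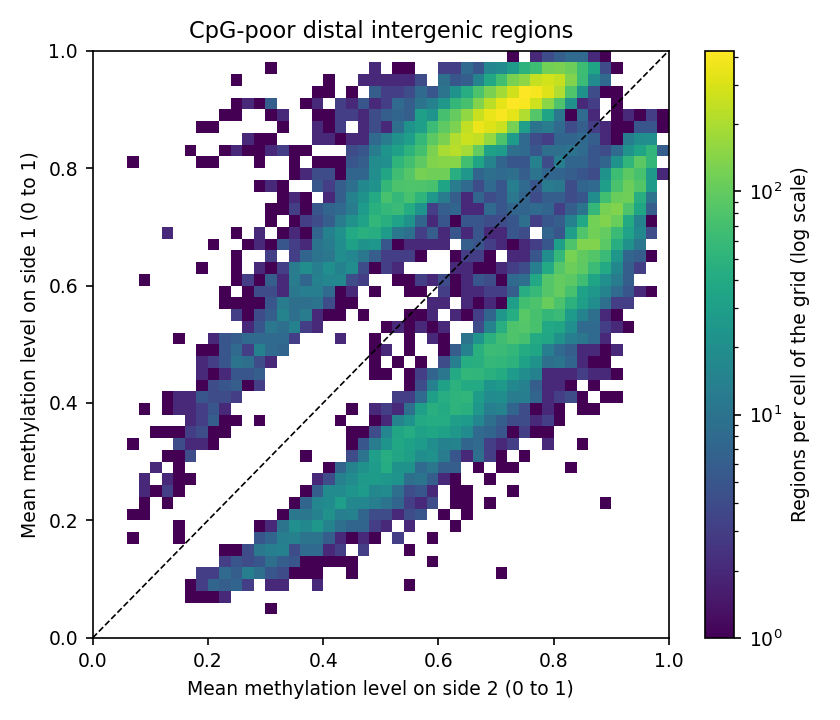
Mean methylation level on side 1 (vertical axis, 0 to 1) against side 2 (horizontal axis, 0 to 1) for the 28546 CpG-poor distal intergenic regions, counted in a grid with a log colour scale; the dashed line marks equal levels. The denser band above the line holds the 17262 regions higher on side 1, centred near 0.881 and 0.682, and the band below it the 11284 higher on side 2.

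Of the members, 974 (3.41%), 568 of them higher on side 1 and 406 on side 2, differed by less than 0.1 and lie close to the line of equal levels. In the authors' deposited table they were long and sparse, with a median of 561.5 bases and 0.884 CpGs per 100 bases, against 229 bases and 2.33 for the other 27572. Their median levels were 0.798 on side 1 and 0.794 on side 2. The smallest difference among all members was 2.91e-05, so a place in the table is not a minimum size of difference.

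The direction went with the distance from the nearest transcription start. Up to 5 kb from the nearest start, 45.6% of 1644 members were higher on side 1 in the authors' deposited table. The share was 51.2% at 5 to 10 kb, 51.6% at 10 to 20 kb, 52.9% at 20 to 50 kb and 58.8% at 50 to 100 kb. It was 63.9% at 100 to 200 kb, 75.1% at 200 to 500 kb and 83.7% at 500 kb to 1 Mb. Beyond 1 Mb, 506 of 576 members (87.8%) were higher on side 1. Each bin was above the one before it. Regions higher on side 1 had a median distance of 77.8 kb and those higher on side 2 of 39.4 kb. The share over 200 kb exceeded that within 20 kb by 28.4 percentage points (78.5% of 6279 and 50.1% of 7120), and it was larger on 19 of 19 autosomes, by 10.4 (chromosome 7) to 38.9 points (chromosome 1). Upstream and downstream regions were alike far from a start, with 78.9% and 78.2% over 200 kb, and differed more within 20 kb, with 49.1% and 53.7%.

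Outside the members the share was also larger far from a start than near one. In CpG-rich distal regions the share higher on side 1 was 27.2% up to 5 kb, 31.9% at 5 to 10 kb, 31.4% at 10 to 20 kb and 76.0% of 50 regions beyond 1 Mb. In CpG-poor later introns it was 37.9% up to 5 kb and 75.6% of 197 regions at 500 kb to 1 Mb. At each distance plotted, the CpG-poor distal regions were above both. CpG-poor first introns, which are not plotted, were below the members in each bin up to 200 kb, but not far from a start. At 200 to 500 kb, 111 of 148 first-intron regions were higher on side 1, close to the members' 75.1%. At 500 kb to 1 Mb they were above the members, with 91.2% of 34 against 83.7%. Beyond 1 Mb, all 4 were higher on side 1.

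**Figure D2:**
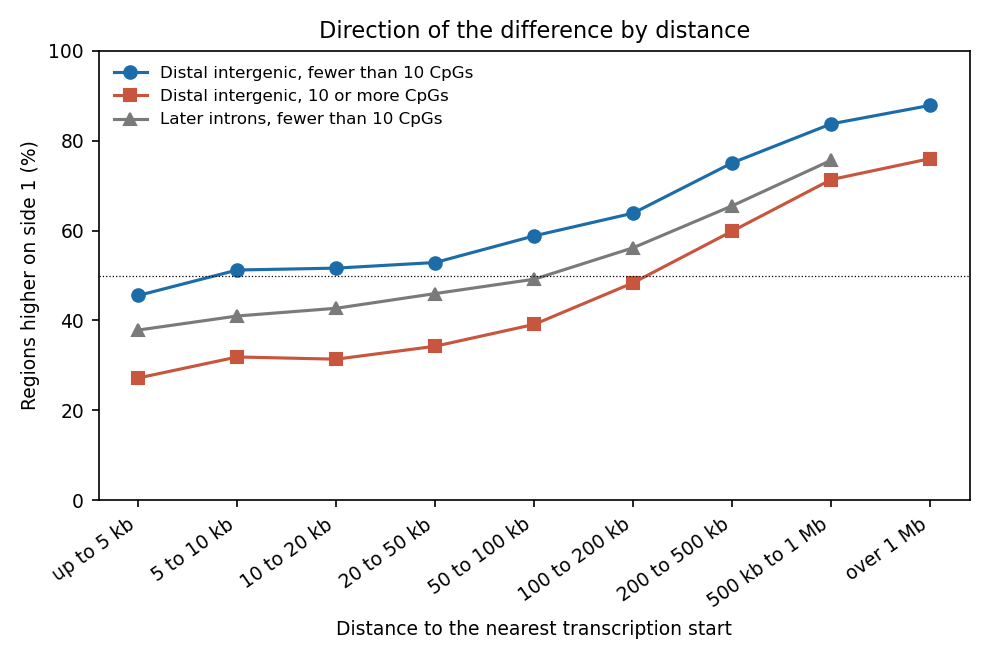
Share of regions with the higher methylation level on side 1 (vertical axis, percent) in bins of distance to the nearest transcription start, for CpG-poor distal regions (circles), CpG-rich distal regions (squares) and CpG-poor later introns (triangles; the bin beyond 1 Mb, with 9 regions, is not drawn). The circles run from 45.6% to 87.8%; the dotted line is at 50%.

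CpG number and direction were related as well. Of members with 4 CpGs, 65.7% of 11075 were higher on side 1 in the authors' deposited table, with 5 CpGs 62.4%, with 6 CpGs 57.0%, with 7 CpGs 53.8% and with 8 CpGs 50.5%. Just inside the limit of the rule, at 9 CpGs, the share was 48.8% of 1403, and just outside it, at 10 CpGs, 41.0% of 1129. In distal regions with more than 30 CpGs it was 22.7% of 211. The step across the rule's limit was the largest between neighbouring counts from 4 to 10 CpGs, and at 11 to 15 CpGs the share was 40.7%.

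Distance and CpG number each went with direction when the other was held. Within 20 kb of a start the share higher on side 1 was 56.1% at 4 CpGs and 38.1% at 9 CpGs. Over 200 kb away it was 80.4% at 4 CpGs and 71.1% at 9 CpGs. In members of the lowest CpG density class (up to 1.6 per 100 bases) it was 59.3% near and 82.0% far. Near a start the 3 denser classes had 46.4%, 46.5% and 49.7%, with no steady fall, and far from one 79.0%, 75.8% and 74.4%. Far regions were above near ones in each CpG count and each of 4 density classes.

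**Figure D3:**
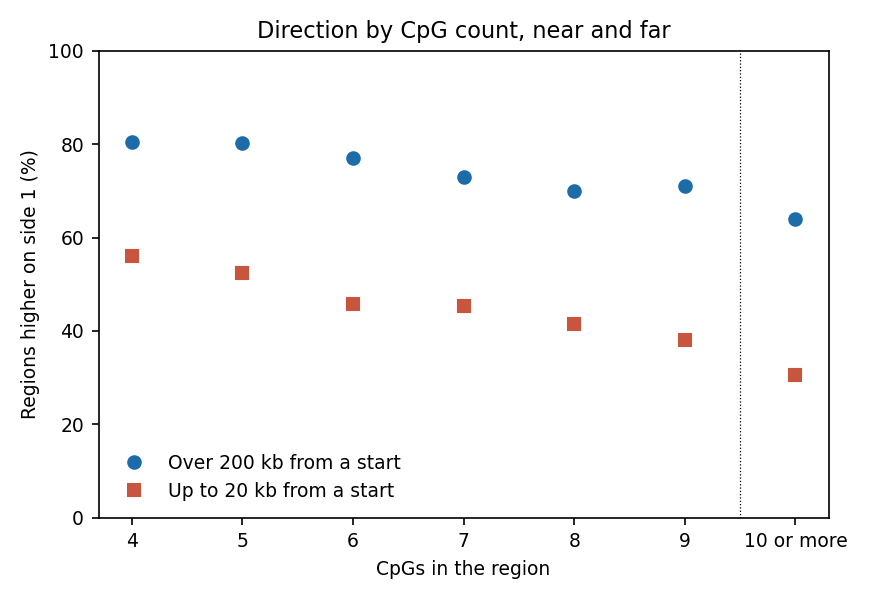
Share of distal intergenic regions with the higher level on side 1 (vertical axis, percent) by the number of CpGs in the region, for regions over 200 kb (circles) and up to 20 kb (squares) from the nearest start; points right of the dotted line are CpG-rich regions outside the rule. The circles lie above the squares at each CpG count, at 80.4% and 56.1% for 4 CpGs.

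The split between directions varied along chromosomes. Of 1468 windows of 1 Mb with at least 10 members, 377 (25.7%) had 80% or more of their members higher on side 1, and 45 (3.07%) had 20% or fewer. The windows dominated by side 1 had a median distance to a start of 208.3 kb and those dominated by side 2 of 21.6 kb. Neighbouring members had the same direction in 60.8% of 28527 pairs, in 72.4% of the 813 pairs less than 1 kb apart, in 59.8% at 5 to 20 kb and in 58.4% over 100 kb. Beyond 1 kb the share thus changed little with the gap. Neither for the pairs nor for the windows, some with only 10 members, was the share that the overall split alone would give subtracted.

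The windows of 100 kb with the most members were 3, with 13 each. On chromosome 10 (95600001 to 95700000), with Nudt4 as the nearest gene, 11 of 13 were higher on side 2, with median levels of 0.591 on side 1 and 0.771 on side 2. Near Rreb1, a zinc finger transcription factor gene on chromosome 13 (37700001 to 37800000), 11 of 13 were also higher on side 2 in the authors' deposited table. Near Fndc3a on chromosome 14 (72400001 to 72500000) all 13 were higher on side 1, with median levels of 0.890 and 0.634.

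The 5 nearest genes with the most members had them at median distances of 364475 to 745942 bases, except Fndc3a with 94200 bases. The gene models 5730507C01Rik and Gm20268 had 44 members each, of which 42 and 43 were higher on side 1. Fndc3a had 41 (38 higher on side 1), and Lrrc4c, which encodes a synaptic adhesion protein, had 38 (32 higher on side 1) at 207.6 to 1874 kb. The model 1700017L05Rik had 37, with 24 higher on side 1. In all, 8935 genes were nearest to a member, 3746 of them to a single one.

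Kidney expression of the nearest gene was read from the 4 single-cell libraries, whose tissue, per the labels, came from the same chopped and mixed kidneys as the DNA. UMI counts, which count RNA molecules, were summed over all barcodes of a library and scaled to the library's total as CPM, the usual depth-scaled count. Depth ran from 10073836 UMIs in Gulo-/- replicate 1 to 88925323 in Gulo-/- replicate 2, with 10208946 in wild type replicate 1 and 61688164 in wild type replicate 2. The wild type libraries shared 986 barcodes, of 2090 in replicate 1 and 11829 in replicate 2, so they may not be independent, and other pairs shared 9 to 282. Segment markers of the kidney were present in every library, and all 5 looked up separated the genotypes. Slc34a1, the phosphate transporter of the proximal tubule, had 1363 and 1335 CPM in wild type replicates 1 and 2 and 917.1 and 361.3 CPM in Gulo-/- replicates 1 and 2. Lrp2, the megalin gene of the same segment, was lower in both Gulo-/- libraries as well (75.3 to 165.9 CPM against 246.3 to 325.6). Aqp2, the water channel of the collecting duct, had 48.8 and 156.4 CPM in the wild type libraries and 1506 and 3053 CPM in the Gulo-/- ones. Umod of the thick ascending limb (220.2 and 485.5 against 1077 and 4398 CPM) and Slc12a3 of the distal convoluted tubule (24.8 and 50.01 against 147.9 and 386.2 CPM) were also higher in both Gulo-/- libraries. The part of these marker levels in the shares of expressed genes below was not tested. The nearest gene could be matched by symbol for 24595 members (86.2%).

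Members higher on side 1 lay less often beside genes that the kidney expresses than members higher on side 2, whose shares were close to those of all regions in the table. For members higher on side 2, the nearest gene reached 10 CPM in 29.0% and 30.01% of regions in wild type replicates 1 and 2, and in 37.5% and 41.1% in Gulo-/- replicates 1 and 2. For members higher on side 1 these shares were 18.2%, 19.1%, 24.1% and 28.1%, and over all regions with a matched nearest gene they were 26.9%, 28.8%, 36.1% and 40.1%. In each library the side 2 share was the larger, and this was also so within 20 kb, from 20 to 200 kb and over 200 kb. Within 20 kb it was 32.2% to 44.3% over the 4 libraries for side 2 and 18.7% to 26.0% for side 1.

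Read the other way, 48.2% of the 4791 members whose nearest gene had at least 10 CPM in all 4 libraries were higher on side 1. The share was 65.3% of the 15740 whose nearest gene was below 10 CPM in all 4, and 74.4% of the 5671 whose nearest gene had 0 UMIs in all 4. Within 20 kb of a start these shares were 36.0%, 57.9% and 72.5%, and over 200 kb 70.9%, 80.8% and 84.0%. The gap of 17.0 percentage points between the first and second group was 16.5 to 16.9 when each library was left out in turn. The nearest gene is not shown to be a gene that the region acts on.

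**Figure D4:**
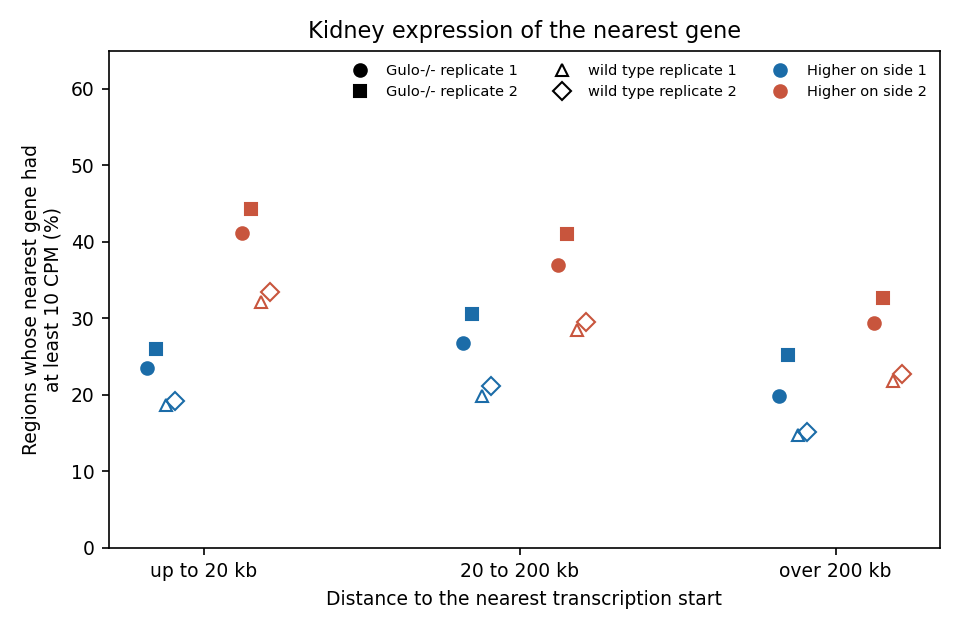
Share of CpG-poor distal regions whose nearest gene had at least 10 CPM (vertical axis, percent) in each of the 4 single-cell libraries (symbol shapes; open for wild type, filled for Gulo-/-), by distance to the nearest start, for regions higher on side 1 (blue) and on side 2 (red). In each library and distance class the red symbol lies above the blue one; up to 20 kb the red symbols span 32.2% to 44.3% and the blue ones 18.7% to 26.0%.

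The share higher on side 1 differed between families of nearest genes, without a test. Of 693 members nearest to an olfactory or vomeronasal receptor gene, a family used in sensory neurons, 609 (87.9%) were higher on side 1 in the authors' deposited table, and within 20 kb of the receptor's start this was 382 of 431 (88.6%). The largest differences among them were those near Olfr1507 (0.681 on side 1 and 0.123 on side 2) and Olfr743 (0.953 and 0.402), both on chromosome 14. Members nearest to cadherin and protocadherin genes, which encode adhesion proteins, were higher on side 1 in 233 of 278 (83.8%), and 201 of these 278 lay over 200 kb from the start, where 78.5% of all members were higher on side 1. Near Cdh10 the levels were 0.790 and 0.374, and near Pcdh9 0.780 and 0.385. Members nearest to Zfp zinc finger genes (59.5% of 385) and microRNA genes (60.4% of 770) had shares close to the 60.5% of all members. Those nearest to a gene model named Gm or Rik had 65.2% of 6136, solute carrier genes 52.8% of 417, and those nearest to Hox, Pax, Fox, Sox, Irx, Tbx and Pou genes 55.7% of 289. The largest differences near Zfp genes were at Zfp943 (0.884 and 0.519) and Zfp804a (0.591 and 0.235), near microRNA genes at Mir124a-1hg (0.797 and 0.340) and Mir7213 (0.789 and 0.391), and near solute carrier genes outside the kidney lists at Slc35f4 (0.778 and 0.308). A region of 3829 bases with 4 CpGs near Gm4251 had 0.869 and 0.1996.

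Lists of kidney genes had smaller shares higher on side 1 than the 60.5% of all members. The proximal tubule list (median distance 28376.5 bases) and the loop, distal tubule and collecting duct list lay nearer to starts. All members had smaller shares there too (52.9% at 20 to 50 kb). Transcription factors of nephron segments lay farther away, at a median distance of 110822 bases. At 100 to 200 kb, 63.9% of all members were higher on side 1. For these transcription factors the share was 115 of 230. The largest difference in this list was near Ppargc1a, a coactivator of mitochondrial genes (chr5:51583295-51583843, 15.6 kb upstream), with levels of 0.292 on side 1 and 0.704 on side 2. For proximal tubule transporters and enzymes it was 34 of 78 (43.6%), with a median absolute difference of 0.221. The largest there were a pair upstream of Slc7a8, an amino acid transporter gene on chromosome 14, at 10.97 kb (0.817 and 0.289) and 28.4 kb (0.868 and 0.439), which were higher on side 1. For genes of the loop, distal tubule and collecting duct, at a median distance of 45726.5 bases, it was 39 of 78. Examples were a region 22.2 kb from the start of Cldn14, a claudin of the thick ascending limb (0.543 and 0.889), and one 105.0 kb upstream of Nr3c1, the glucocorticoid receptor gene (0.297 and 0.618).

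Genes for writing, removing and reading DNA methylation had 36 members nearby, 25 of them (69.4%) higher on side 2 in the authors' deposited table. Among all members 39.5% were higher on side 2. At 20 to 50 kb, where the median distance of this list lies (39533.5 bases), 47.1% of all members were. The 36 lay nearest to 9 of the 22 listed genes. The largest were near Cxxc4, a CXXC protein gene (0.862 and 0.496, 316.1 kb), and Mbd2, which encodes a methyl-CpG reader (0.515 and 0.863, 465.8 kb). Genes of ascorbate synthesis and transport had 6 members, 5 of them higher on side 2. Their median distance was 27307 bases, in the same distance bin. Ugp2 and Ugdh, which encode enzymes of the UDP-glucose route that leads toward ascorbate, had levels of 0.309 and 0.591, and of 0.652 and 0.919, on sides 1 and 2.

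Genes of tubular injury and repair had 50 members at a median distance of 17947.5 bases, 24 of them higher on side 1 (48.0%, against 51.6% of all members at 10 to 20 kb). A region 8.17 kb upstream of Spp1, the osteopontin gene, had levels of 0.411 and 0.717 (chr5:104426698-104426940), and one 2.89 kb upstream of the receptor gene Tgfbr1 had 0.214 and 0.516 (chr4:47349928-47350330). Matrix genes had 63 members at a median distance of 39218 bases, 29 higher on side 1 (46.0%, against 52.9% of all members at 20 to 50 kb). Loxl2, a collagen cross-linking enzyme gene on chromosome 14, had 0.948 and 0.567 at 1.56 kb, and Lama2, a laminin chain gene, 0.458 and 0.818 at 198.4 kb. Endothelial genes had 87 at a median distance of 72717 bases, with 47 higher on side 1 (54.0%, against 58.8% of all members at 50 to 100 kb). The largest differences there, both higher on side 2, had Tm4sf1 and Vegfa, the endothelial growth factor gene, as nearest genes. The Tm4sf1 region lay 391.7 kb from the start (0.581 and 0.958) and the Vegfa region 98.4 kb (0.557 and 0.868). Lists of this size can differ from the whole by the choice of a few genes, and no test was run.

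The largest single differences outside chromosome 14 were found in both directions. Among regions higher on side 1, the one 7.88 kb upstream of Pou2f2, a lymphoid transcription factor gene (chr7:25140344-25140474, 4 CpGs), had levels of 0.833 and 0.305 in the authors' deposited table. A region 76.7 kb from Emb, which encodes embigin (chr13:117297285-117297425, 8 CpGs), had 0.904 and 0.377. Regions near Zdhhc21, Pom121l12, Ube2e3, Pmp2, Bcl2a1c and Tbx18 differed by 0.447 to 0.477 and lay 36.9 to 685.1 kb from the start. All 8 were at 0.807 or above on side 1 and at 0.489 or below on side 2. Of the nearest genes, Ube2e3 had 53.9 to 75.8 CPM and Emb 8.33 to 68.0 CPM in the single-cell libraries, and Pmp2 had 0 UMIs in all 4. Zdhhc21 had 6.17 to 14.3 CPM, Pou2f2 3.97 to 6.95 CPM, Tbx18 at most 0.0225 CPM and Bcl2a1c at most 0.0112 CPM.

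Among regions higher on side 2, the largest difference was near the gene model Gm12866 (chr4:119019688-119019808, 6 CpGs), with levels of 0.106 and 0.711. A region 22.9 kb upstream of Tmem64 (chr4:15242549-15242883, 8 CpGs) had 0.283 and 0.840. Those near Glycam1 (0.331 and 0.848) and Gm31763 (0.415 and 0.918) followed. Regions near Klf10, a TGF-beta-inducible zinc finger gene, Dlx4, a homeobox gene, Bod1 and Cyp2f2, a cytochrome P450 gene, differed by 0.468 to 0.482. In the single-cell libraries Tmem64 had 29.4 to 44.7 CPM and Bod1 31.2 to 68.8 CPM, whereas Dlx4 had 0 UMIs in all 4. Klf10 had 4.96 to 14.1 CPM, Cyp2f2 0.191 to 2.20 CPM, Gm12866 at most 0.236 CPM and Glycam1 at most 0.0225 CPM. The farthest members upstream lay 2.14 to 2.18 Mb from Pcdh17, a protocadherin gene on chromosome 14. Their levels were 0.939 and 0.795, 0.934 and 0.720, and 0.813 and 0.953. The farthest downstream were near Olfm4, at 2.14 and 2.05 Mb, and the glutamate receptor gene Grik2, at 1.98 Mb, each higher on side 1.

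Chromosome 14, which carries Gulo (65986786 to 66009254, GRCm38.p6), held most of the members that differed by at least 0.5. At least 0.3 was reached by 1288 members (4.51%, against 4.64% of all regions), of which 261 lay on chromosome 14. That was 15.6% of its 1670 members, and 2.84% to 4.84% on the other autosomes. At least 0.5 was reached by 52 members, 46 of them on chromosome 14. Between 45 and 75 Mb, limits chosen after the values were seen, 232 of 756 members (30.7%) reached 0.3 and 77.6% were higher on side 1. Elsewhere on the chromosome it was 29 of 914 (3.17%) and 65.8%. Within that stretch the 5 Mb bins from 55 to 65 Mb, on one side of Gulo, had smaller shares past 0.3, of 12.3% and 16.1%, than the other 4 bins, with 27.3% to 43.3%. A single member lay within 100 kb of Gulo. The largest difference of all was near 4930597G03Rik (chr14:51307316-51307757), with levels of 0.811 on side 1 and 0.0672 on side 2. The next, 4.64 kb upstream of Pabpn1, had 0.948 and 0.255. In the other direction the largest on chromosome 14 were 624.4 kb from Olfm4, with 0.227 and 0.884, and near 4930572O13Rik, with 0.380 and 0.853. Outside chromosome 14, 444 of the 1027 members past 0.3 were higher on side 1 and 583 on side 2, whereas most members were higher on side 1.

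**Figure D5:**
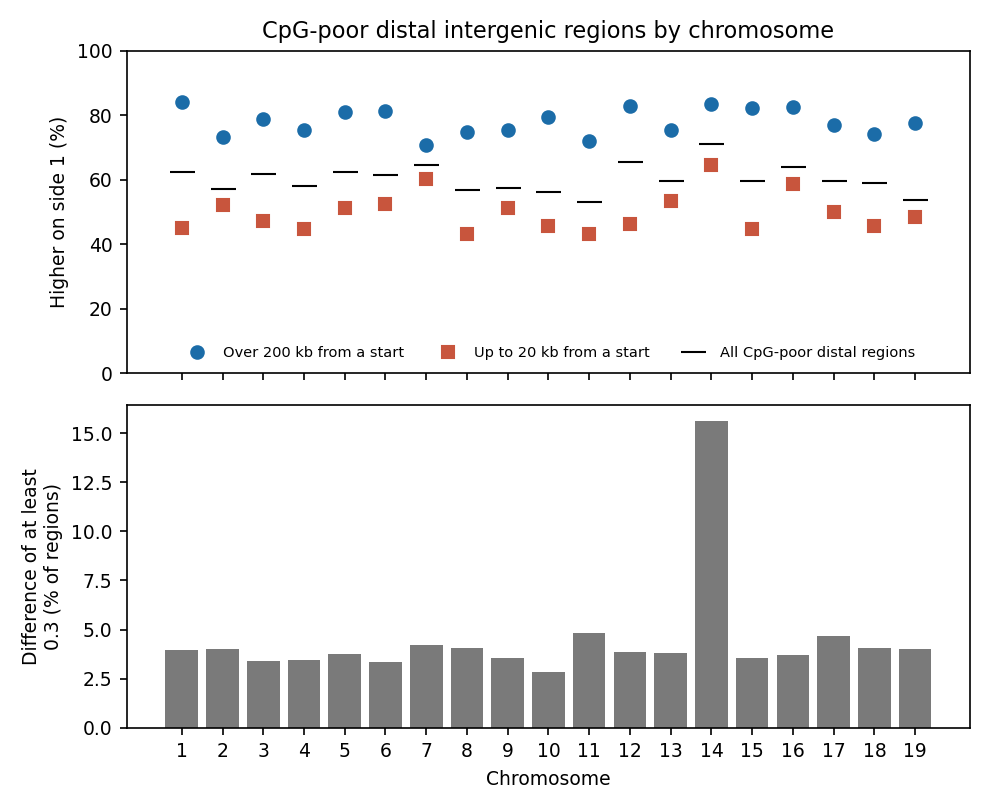
CpG-poor distal regions on each autosome: above, the share higher on side 1 (percent) over 200 kb (circles) and up to 20 kb (squares) from a start and for all members (dashes); below, bars for the share of regions with a difference of at least 0.3 (percent). Circles lie above squares on all 19 autosomes, and the bar of chromosome 14 stands at 15.6% against 2.84% to 4.84% elsewhere.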

How the data were processed

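Methylation values come from a list of differentially methylated regions, tied by the labels to 2 wild type and 2 Gulo-/- bisulfite libraries. The authors called and annotated these regions and deposited, per the file headers, a mean methylation level for each side as a fraction from 0 to 1. The authors also deposited a region score from their calling step, which no result here uses, beside CpG number and distance to a transcription start. The submitters' processing notes name build mm10, MACS2 2.1.2 and Seurat 2.3.4. The caller, its coverage filter and the coverage per region are not given in the sources used here, so the depth behind each level is unknown. The table lists regions selected for a difference, so shares of direction describe those regions, not the genome.

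Regions were selected and summarised with pandas 2.3.3 in Python 3.11.15. The selection code was run on simulated regions built with the same rule, which checks the code and not the deposited regions. A member's overlap with RefSeq starts and genes used build GRCm38.p6, the same assembly. The start windows used here hold no chromosome 18, where 1013 members lie. No motif or base composition over all members was computed, since no genome sequence was used. The deposited UMI counts of 4 single-cell libraries were summed over all barcodes, with no cell filter, and scaled to CPM; doublets and background barcodes were not removed. Regions named are the 8 largest differences per direction outside chromosome 14, the 2 largest per direction on it, the 3 farthest in each sign of distance, the 2 largest per gene list, and the densest windows and nearest genes. A single region that this rule names is not reported here. Sequences planned for the named regions needed a genome, so those of regions inside RefSeq start windows are printed instead. The members, lists, limits and the use of expression were chosen with earlier results of these data known.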

Additional observations from a re-analysis of the deposited data

How the results depend on the processing

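Most members were higher on side 1 (60.5%), but this did not hold for larger differences outside chromosome 14. There, 444 of the 1027 members that differed by at least 0.3 were higher on side 1 and 583 on side 2. The share of members higher on side 1 stayed above 50% under each alternative listed next. It was 64.4% with fewer than 6 CpGs, 58.4% with fewer than 15, 59.8% without chromosome 14, 62.0% with X and Y, 56.0% for differences of at least 0.2, 68.2% at 50 kb or more from a start, 55.9% with 1 region per nearest gene and 61.4% with 1 per 1 Mb. The median absolute difference (0.195) was 0.198 with fewer than 6 CpGs, 0.194 with fewer than 15 CpGs, without chromosome 14 or at 50 kb or more, 0.196 with X and Y, and 0.197 and 0.233 for minimum differences of 0.1 and 0.2. The median distance (58.5 kb) was 66.2, 55.8 and 60.2 kb with fewer than 6 CpGs, fewer than 15 and X and Y, 56.2 kb for differences of at least 0.2, 157.2 kb at 50 kb or more, 23.4 kb with 1 region per gene and 45.1 kb with 1 per 1 Mb. The far-minus-near difference in share (28.4 points) was 25.7 with fewer than 6 CpGs, 32.6 for differences of at least 0.2 and 22.6 with 1 region per gene, and has no value at 50 kb or more. The nearest-gene gap (17.0 points) was 16.5 to 16.9 when single-cell libraries were left out in turn, and 17.6 and 18.2 at limits of 1 and 100 CPM. The alternatives for the far-minus-near difference and the nearest-gene gap, and the 1 Mb spacing, were chosen after seeing the data. The cause of these shifts was not tested. No paired analysis was possible because the table of regions has no values per library, and for the same reason no bisulfite library could be left out.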
